A study of Mus musculus with 48 samples.

Results

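The 31 genes described here encode proteins of the myelin sheath and of mature oligodendrocytes, the cells that wrap axons in the brain. They were chosen by name, from knowledge of these cells, out of 57126 gene identifiers in the count table. The choice was made with earlier results of these data known, so the list is not independent of them. All 31 were counted in each of 48 hippocampus libraries, and all 31 passed the filter on low counts that left 16360 genes for testing. The libraries came from CD-1 mice, an outbred stock, 2 months old, with 1 library per mouse and 6 mice in each of 8 groups. The exposed groups of each sex were offspring of dams that drank water with Mn (2 g/L), Pb (100 ppm) or both metals together (Pb+Mn), starting 2 weeks before mating and stopping when the pups were weaned (postnatal day 21), an exposure of 8 weeks. The control groups of each sex came from dams for which the labels name no metal. The metals therefore reached these mice through their mothers, and every group, controls included, was sampled well after weaning. The labels do not say which mice were littermates, so p-values measure the spread between single animals, some of which may share a dam.

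Oligodendrocytes arise from dividing precursor cells, pass through a short differentiating stage and then switch on a common set of myelin genes under the transcription factors SOX10 and MYRF. Their membrane wraps the axon, is packed tight by basic proteins, is rich in galactosylceramide and cholesterol, and is coupled by connexin channels. In the hippocampus, myelin is concentrated in fibre tracts such as the alveus and the fimbria. The labels do not describe the dissection.

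Total counts were between 6273586 and 27639841 per library. Genes that mark dentate granule cells summed to between 438.6 and 989.2 CPM (counts-per-million, scaled by library size) and CA1 pyramidal genes to between 372.1 and 1654 CPM, so hippocampal markers were present in every library. Thalamus and habenula genes summed to between 406.3 and 2196 CPM and choroid plexus genes to between 58.0 and 6915 CPM, so the signal of genes of neighbouring tissue varied widely between libraries. The sex-linked transcripts of 2 libraries went against or apart from their labels. The library labelled female Pb 4 had 0.0684 CPM of Xist and no Ddx3y count, where the other 23 female libraries had at least 18.0 CPM of Xist. The library labelled male control 4 had 24.4 CPM of Xist beside 30.8 CPM of Ddx3y, where the other 23 male libraries had at most 0.321 CPM of Xist. Results that rest on these libraries are given with and without them.

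The members were present at very different levels. Per kilobase of exon, Mbp, whose product holds the cytoplasmic faces of the myelin membrane together, was the most abundant member, with 613.3 ± 199.6 CPM per kilobase (SD, n = 48 libraries). Mobp, a second basic protein of compact myelin, followed at 198.7 ± 77.5 CPM per kilobase, Cnp at 103.6 ± 17.9, Mal at 98.7 ± 22.5 and Cldn11 at 95.9 ± 17.5. The last 3 lie within their spread of each other, so their order carries no weight. At the other end, Nipal4, which encodes a putative magnesium transporter, had 1.49 ± 0.333 CPM per kilobase and Ninj2, an adhesion protein, had 0.968 ± 0.432 CPM per kilobase.

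Within the list, libraries differed more than groups did. The highest library exceeded the lowest by 2.04-fold for Gpr37, a G protein-coupled receptor of oligodendrocytes, and by 7.91-fold for Ninj2, with the other members between these. To follow the members together, a member level was computed for each library as the mean over the 31 genes of log2 CPM minus that gene's mean over 48 libraries. It averaged 0.04 ± 0.15 in male Mn, 0.06 ± 0.31 in male Pb, 0.02 ± 0.22 in male Pb+Mn and 0.003 ± 0.35 in male control mice (SD, n = 6 each). It averaged -0.30 ± 0.46 in female Mn, 0.01 ± 0.24 in female Pb, 0.09 ± 0.19 in female Pb+Mn and 0.07 ± 0.12 in female control mice (SD, n = 6 each). The female Mn mean was the lowest of the 8 and its spread the widest, because 2 of its 6 libraries lay far below the rest.

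**Figure D1:**
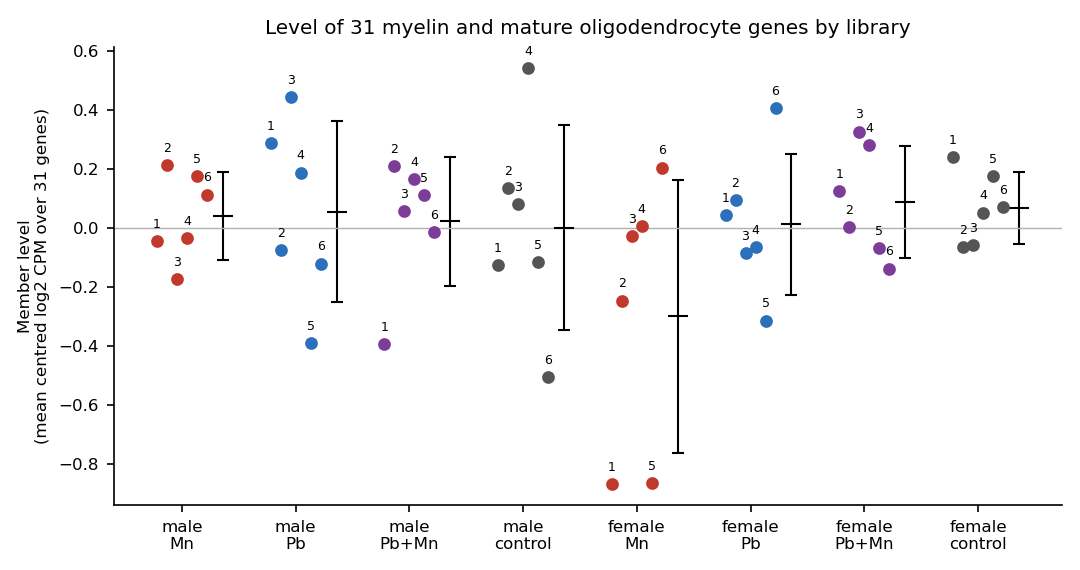
Member level of each library, the mean over 31 genes of centred log2 CPM, by group; points are libraries with their number, and the bar beside each group is the mean with 1 SD (n = 6). Female Mn 1 and 5 sit at -0.87 and -0.86, below the other 46 libraries, which span -0.51 to 0.54.

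The 6 female Mn libraries had member levels of -0.87, -0.24, -0.03, 0.01, -0.86 and 0.21 in the order of their numbers. Libraries 1 and 5 were the lowest of all 48, and the other 4 averaged -0.01 ± 0.18 (SD, n = 4). The members took 0.499% of all counts in female Mn 1 and 0.405% in female Mn 5, and between 0.520% and 1.59% in the other 46 libraries. In both libraries all 31 members lay below their own mean over the 48 libraries. The members ranged in female Mn 1 between -1.35 for Hapln2, a link protein of the matrix at nodes of Ranvier, and -0.32 for Gpr37. In female Mn 5 the member farthest below its mean was Nkx6-2, a homeodomain factor, with 4.17 CPM where no other library was below 7.22 CPM, and the nearest was Ugt8a, the enzyme that makes galactosylceramide, at -0.37. Female Mn 5 held the lowest value of the 48 libraries for 15 members and female Mn 1 for 10.

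Set against the 6 female controls, 30 members in female Mn 1 and 28 in female Mn 5 lay below the lowest control library. The counts were 15 in female Mn 2, 5 in female Mn 3, 4 in female Mn 4 and 2 in female Mn 6. Library 2 was thus intermediate for some members, while 3, 4 and 6 overlapped the controls for most of them. Outside female Mn, the counts ran between 0 and 19 in female Pb libraries and between 0 and 11 in female Pb+Mn libraries. Each female control, set against the other controls, gave between 1 and 11, so the count of female Mn 2 lay near these. The share of all genes below the lowest control is not given for these counts. For no member did all 6 female Mn libraries lie on one side of all 6 controls, a separation that 0.0856% of all genes showed.

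**Figure D2:**
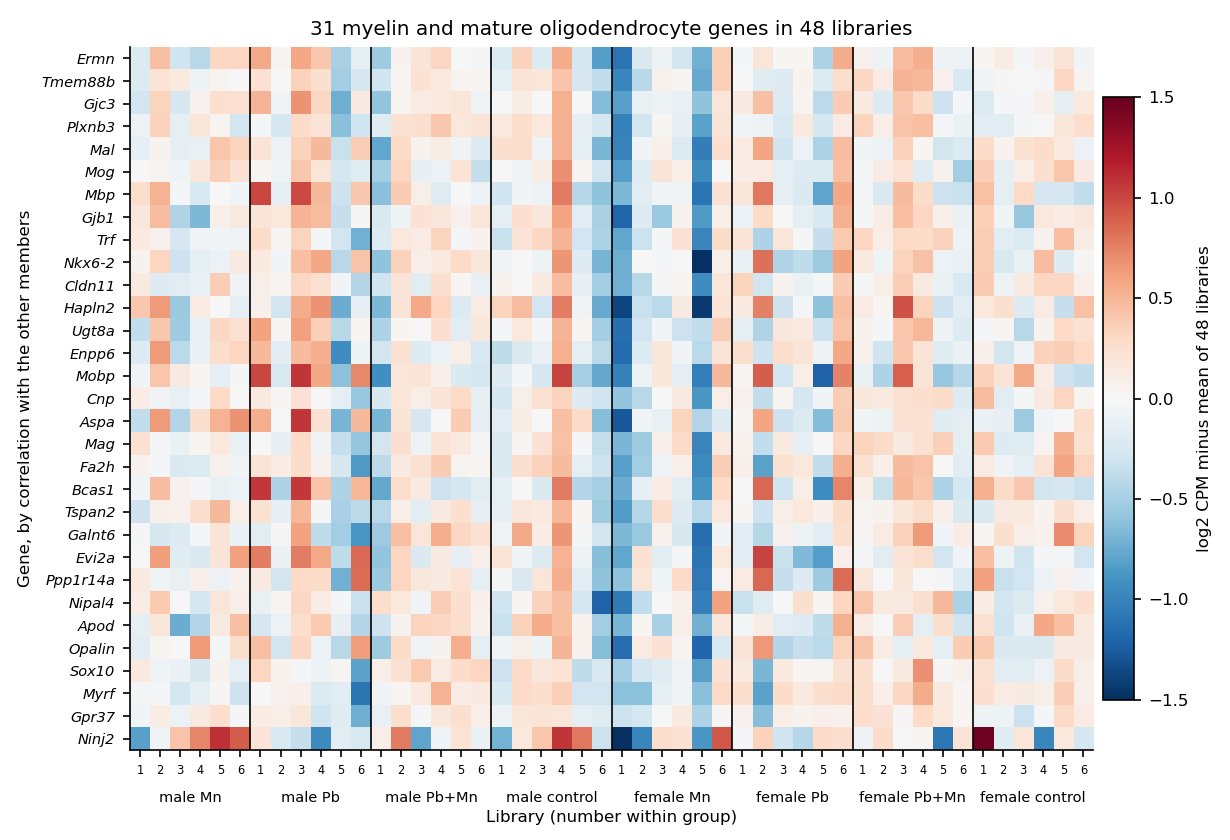
Log2 CPM of each member minus its mean over 48 libraries, with genes as rows ordered by their correlation with the other members and libraries as columns grouped by sex and exposure. Female Mn 1 and 5 are blue over all 31 genes, whereas male Pb 6 and female Pb 2 mix genes above and below their mean.

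In no comparison did a member pass an adjusted p of 0.05. Across 14 comparisons (6 of an exposure with the control of the same sex, 4 of Pb+Mn with a single metal, female with male controls, and 3 tests of whether an exposure's effect differed between the sexes), edgeR's quasi-likelihood test with Benjamini-Hochberg adjustment called 0 of 31 members. Over all 16360 genes it called 0% in 13 of the comparisons and 0.0428% between female and male controls (7 genes, no member). DESeq2, limma-voom and voom with library weights also called 0 members in each comparison. Counts of members at an unadjusted p under 0.05 are therefore descriptions, to be read against the share of all genes at that p.

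The comparison of female Mn with female control mice asks whether developmental Mn left a trace in the myelin genes of daughters. All 31 fold changes were negative, with a median of -0.29 on the log2 scale, where 50.4% of all genes were negative and their median was -0.0009. At an unadjusted p under 0.05 there were 10 members, all lower, beside 2.62% of all genes in either direction and 1.36% in the lower direction. Because the 31 genes vary together from library to library, these 10 are not separate pieces of evidence. In bulk tissue, fewer oligodendrocytes and less myelin RNA per oligodendrocyte cannot be told apart.

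By role, the packing and membrane proteins of the sheath (Mbp, Mobp, Mal, Cldn11, Tspan2, Opalin and Tmem88b) had a median log2 fold change of -0.28 in female Mn over female control mice. Mbp itself had 2322, 4565 and 5739 CPM in female Mn mice (lowest, median and highest of 6 libraries), against 3843, 4339 and 6740 CPM in female controls. The 2 lowest libraries were female Mn 5 and 1, while the medians were close; the log2 fold change was -0.23 ± 0.24 (standard error; unadjusted p = 0.3453). Cldn11, the claudin that forms the tight junctions between myelin layers, had 92.2, 152.7 and 199.4 CPM in female Mn mice, against 167.6, 205.5 and 229.7 CPM in female controls. Its ranges overlapped, but all 6 female Mn libraries lay below the control mean. The log2 fold change was -0.45 ± 0.15 (edgeR unadjusted p = 0.00475, adjusted p = 1.0; exact permutation test, two-sided, p = 0.02814).

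Surface and adhesion proteins had a median of -0.32. Mog, the immunoglobulin-like protein on the outermost face of myelin, had 35.8, 65.5 and 79.6 CPM in female Mn mice, against 63.6, 79.6 and 92.6 CPM in female controls. Mag, the sialic acid-binding protein that faces the axon, had 84.3, 145.7 and 204.7 CPM in female Mn mice, against 145.9, 183.8 and 243.3 CPM in female controls. For both genes the lowest 2 female Mn libraries were 5 and 1, and the upper female Mn libraries fell inside the control range. The smallest difference of all members was that of Gpr37, at -0.13 ± 0.12 (log2, standard error; unadjusted p = 0.2987).

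Cytoplasmic proteins had a median of -0.29. Cnp, the cyclic nucleotide phosphodiesterase of the uncompacted myelin channels, had 203.1, 325.7 and 405.8 CPM in female Mn mice, against 329.1, 392.7 and 510.7 CPM in female controls. Its log2 fold change was -0.37 ± 0.15 (edgeR unadjusted p = 0.01516, adjusted p = 1.0; exact permutation test, two-sided, p = 0.0671), with all 6 female Mn libraries below the control mean of 409.4 CPM.

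The group of lipid enzymes, carriers and glycosylation had a median of -0.31. It held the member with the largest difference, Galnt6, which starts O-linked glycosylation of proteins. Galnt6 had 5.53, 9.31 and 12.8 CPM in female Mn mice, against 12.4, 13.7 and 19.8 CPM in female controls, so that only the top of one range met the bottom of the other. All 6 female Mn libraries lay below the control mean, and the log2 fold change was -0.61 ± 0.19 (edgeR unadjusted p = 0.002824, adjusted p = 1.0; exact permutation test, two-sided, p = 0.006494). Aspa, the aspartoacylase that frees acetate for lipid synthesis, had one of the smallest differences, at -0.13 ± 0.24 (log2, standard error). The connexins Gjb1 and Gjc3, which couple myelin layers and glial cells, gave -0.41 ± 0.19 and -0.20 ± 0.18 (log2, standard error; unadjusted p = 0.03364 and 0.2821).

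The transcription factors Myrf, Sox10 and Nkx6-2 had a median of -0.33. Myrf, the membrane-bound factor that keeps the myelin programme on, had 45.9, 55.4 and 87.0 CPM in female Mn mice, against 75.2, 77.6 and 91.7 CPM in female controls. In 5 of 6 female Mn libraries it lay below the control mean, and female Mn 2 (46.5 CPM) was as low as female Mn 1 (46.4 CPM) and female Mn 5 (45.9 CPM). The log2 fold change was -0.42 ± 0.16 (edgeR unadjusted p = 0.01353, adjusted p = 1.0; exact permutation test, two-sided, p = 0.02381). Sox10 gave -0.27 ± 0.15 (log2, standard error; unadjusted p = 0.08623).

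Because the members vary together and include Sox10 and Myrf, the bases upstream of their start sites were read from RefSeq promoters (GRCm38.p6), in a window of 250 bases before each start. There were rows for 24 of the 31 members, and none for Bcas1, Myrf, Fa2h, Evi2a, Sox10, Mbp and Trf. The letters searched, on both strands, were ACAAAG and AACAAT, which SOX factors bind, and CTGGNAC, a loose form of the letters that MYRF binds. N was taken as any base, and narrower forms were not counted. ACAAAG was found in 7 of the 24 (29.2%), beside 16.5% of 27018 promoters. AACAAT was found in 6 (25%), beside 9.65% of all, and CTGGNAC in 7 (29.2%), beside 16% of all. A SOX motif together with the MYRF motif was found in 4 members (16.7%), beside 3.55% of all promoters. Those 4 are shown because they hold both kinds of motif; capitals mark the motifs, read 5′ to 3′ on the strand of the gene. Mag lies at chr7:30914864-30915113 (minus strand), Hapln2 at chr3:88027512-88027761 (minus strand), Cnp at chr11:100574689-100574938 (plus strand) and Apod, a lipid-binding lipocalin, at chr16:31314809-31315058 (minus strand).
Mag: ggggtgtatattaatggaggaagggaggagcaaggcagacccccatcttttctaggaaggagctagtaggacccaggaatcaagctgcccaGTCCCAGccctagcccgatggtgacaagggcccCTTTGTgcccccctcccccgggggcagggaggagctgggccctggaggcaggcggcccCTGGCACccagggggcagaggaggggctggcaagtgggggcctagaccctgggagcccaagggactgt
Hapln2: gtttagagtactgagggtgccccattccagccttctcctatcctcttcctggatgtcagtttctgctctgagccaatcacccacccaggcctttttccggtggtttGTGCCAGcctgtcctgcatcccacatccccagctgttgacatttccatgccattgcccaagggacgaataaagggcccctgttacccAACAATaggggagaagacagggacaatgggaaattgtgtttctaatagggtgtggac
Cnp: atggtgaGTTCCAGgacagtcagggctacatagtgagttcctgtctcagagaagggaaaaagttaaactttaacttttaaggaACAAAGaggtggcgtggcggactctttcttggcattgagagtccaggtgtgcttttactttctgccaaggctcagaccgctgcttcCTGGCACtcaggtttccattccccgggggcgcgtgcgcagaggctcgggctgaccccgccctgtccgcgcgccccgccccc
Apod: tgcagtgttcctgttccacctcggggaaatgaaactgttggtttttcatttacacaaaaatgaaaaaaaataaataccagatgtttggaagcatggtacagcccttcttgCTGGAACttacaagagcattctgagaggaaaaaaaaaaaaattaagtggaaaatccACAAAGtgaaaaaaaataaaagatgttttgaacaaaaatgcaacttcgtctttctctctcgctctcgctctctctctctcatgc

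In the Mag window the first and last capitals match the loose MYRF letters and the middle run is a SOX motif on the reverse strand. In the Cnp window matches to the loose MYRF letters stand on either side of a SOX motif, and Hapln2 and Apod hold one of each. On the strand of the match, N was G in the first Mag match and A in the first Cnp match and the Apod match. Such matches describe the letters of the window and do not show binding.

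Leaving out female Mn 1 and 5 together took most of the female Mn difference away. The median log2 fold change over the members was then -0.09, with 25 negative and 6 positive, and 1 member (Galnt6) was left at an unadjusted p under 0.05, where 2.12% of 16677 genes were. In this edgeR fit Galnt6 gave -0.42 (edgeR unadjusted p = 0.04335). Myrf gave -0.27, Cldn11 -0.24 and Cnp -0.17 (edgeR unadjusted p = 0.1318, 0.1158 and 0.2363). Those genes kept their sign, while Ninj2, Nipal4, Ppp1r14a, Aspa, Evi2a and Opalin took the opposite one. Mbp averaged 4917 ± 573.4 CPM in the 4 remaining female Mn libraries, against 4914 ± 1194 CPM in female controls (SD, n = 4 and 6), and Mobp averaged 1390 ± 282.1 CPM, against 1386 ± 342.0 CPM. Galnt6 averaged 10.8 ± 1.96 CPM in those 4 libraries, against 14.6 ± 2.78 CPM in female controls. The abundant basic proteins were thus level with the controls outside the low pair. Galnt6 averaged lower, but it did not pass the adjusted test. It was also the member of smallest p with the pair included, and 1 member of 31 lies near the share of all genes.

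**Figure D3:**
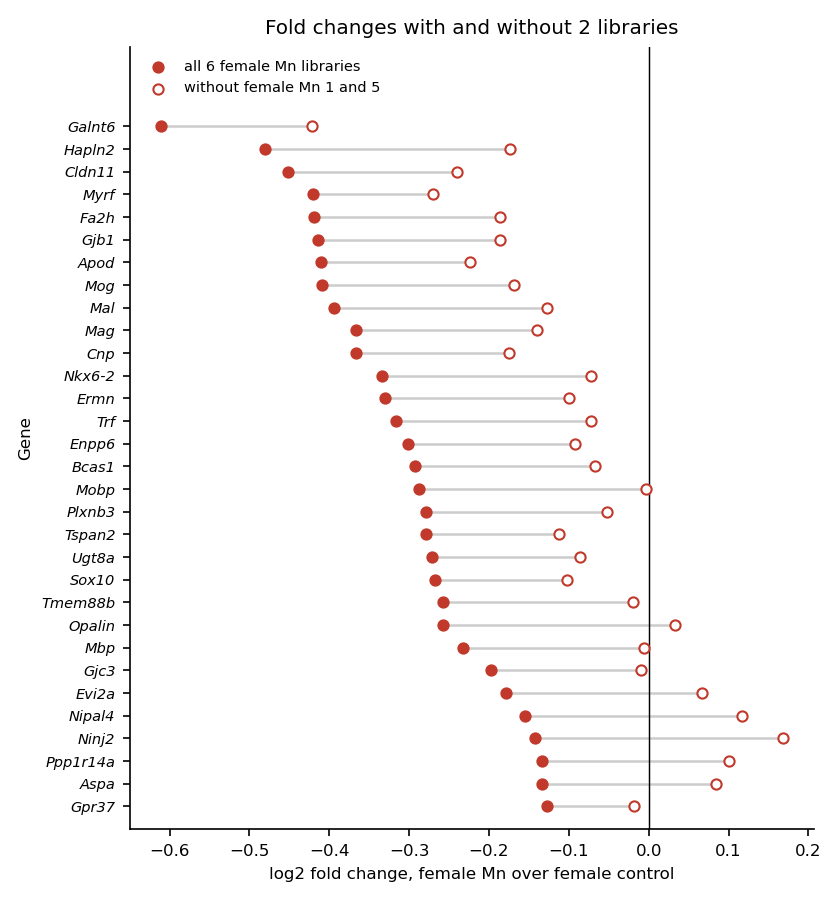
Log2 fold change of each member, female Mn over female control, with all 6 female Mn libraries (filled) and without female Mn 1 and 5 (open), genes ordered by the first. All filled points lie below 0; 25 open points do, and the median moves to -0.09, against -0.29 with all 6.

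Neither low library carried the difference alone. Without female Mn 1 the median was -0.21 with 4 members at an unadjusted p under 0.05 (2.35% of all genes), and without female Mn 5 it was -0.20 with 3 (2.31% of all genes). Without female Mn 6, the highest of the group, the median was -0.43 with 18 members (2.90% of all genes).

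Other cell lists were read in the same 2 libraries. A list of 34 further genes of mature oligodendrocytes, none of them members, stood at -0.51 in female Mn 1 and -0.71 in female Mn 5, against -0.32 to 0.37 in the other 46 libraries. Oligodendrocyte precursor genes stood at 0.01 and -0.01 (others -0.30 to 0.21) and differentiating oligodendrocyte genes at -0.12 and -0.03, inside the range of the rest. The low level in this pair therefore covered mature oligodendrocyte genes outside the list and was not seen in precursor genes. In female Mn over female control mice, the 34 further genes had a median log2 fold change of -0.19 with 4 positive, the 15 precursor genes -0.06 with 6 positive, and 19 cholesterol synthesis genes 0.01 with 10 positive.

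Of the lists for other cells and tissue, dentate granule genes lay near an extreme in both libraries. Dentate granule cell genes stood at 0.56 in female Mn 1, the highest of 48, and at 0.37 in female Mn 5, the third highest. Thalamus and habenula genes stood at -1.06 and -0.46 (others -1.36 to 2.19) and choroid plexus genes at -0.49 and -2.14 (others -2.77 to 3.19). In female Mn 2, 3, 4 and 6 the thalamus and habenula genes stood at -0.02, -1.32, 0.80 and -0.01. The member levels of those libraries were -0.24, -0.03, 0.01 and 0.21. Over female control mice, all 16 thalamus and habenula genes had a negative log2 fold change, with a median of -0.69. Of these, 3 were lower at an unadjusted p under 0.05, beside 1.36% of all genes. The female controls were themselves split on this list, at -0.85, -1.26, -1.03, 0.785, 2.06 and 1.085 in the order of their numbers. Only female control 5 and 6 lay above every female Mn library. Meninges genes were negative in 10 of 11 (median -0.48), cortex layer genes in 7 of 8 (median -0.26) and blood genes in all 5 tested (median -0.56), while 9 of 11 dentate granule genes were positive (median 0.12). Whether the tissue taken has a part in the member difference was not tested.

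**Figure D4:**
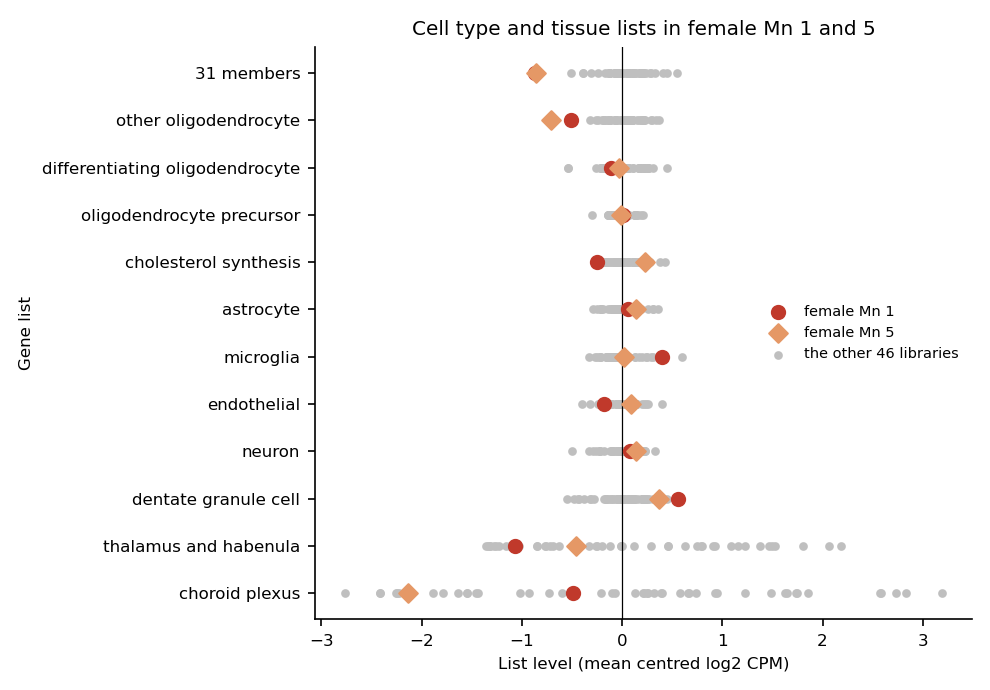
Level of cell type and tissue gene lists (mean centred log2 CPM) in female Mn 1, female Mn 5 and the other 46 libraries, with lists running down the page. The pair lies outside the others for the 31 members and for other oligodendrocyte genes, and inside them for precursor, astrocyte and neuron genes.

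Over all 48 libraries, with each group's mean removed, the member level moved with the list of further oligodendrocyte genes (Pearson r = 0.95, Spearman rho = 0.94; r = 0.94 without the 2 farthest libraries). It moved against dentate granule genes (r = -0.68, rho = -0.57; r = -0.59 without the 2 farthest) and with thalamus and habenula genes (r = 0.50, rho = 0.52; r = 0.50 without the 2 farthest). For precursor genes the values were r = 0.37 and rho = 0.35, with r = 0.46 without the 2 farthest. These levels are relative within each of the 48 libraries, which were scaled by TMM. Whether a larger share of one class lowered the others was not tested. Among the members, 461 of 465 pairs were positively correlated, with a median r of 0.60 (0.56 with 454 positive without female Mn 1 and 5). Ermn, a cytoskeletal protein of late oligodendrocytes, followed the mean of the other 30 members most closely (r = 0.90), then Tmem88b (r = 0.88). By Pearson r, Ninj2 (0.42), Gpr37 (0.48), Myrf (0.51) and Sox10 (0.52) followed it least. Their Spearman rho was 0.37, 0.57, 0.61 and 0.56, and by rho Opalin (0.58) and Nipal4 (0.60) lay below Myrf.

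Pb+Mn compared with Mn alone in females asks whether Pb given together with Mn altered the outcome. Of the 31 fold changes 30 were positive, with a median of 0.34 on the log2 scale, and 14 members were higher at an unadjusted p under 0.05, beside 2.55% of all genes in either direction and 1.71% in the higher direction. Plxnb3, a semaphorin receptor, had 13.3, 16.6 and 19.5 CPM in female Pb+Mn mice (lowest, median and highest of 6 libraries), against 7.05, 12.4 and 16.3 CPM in female Mn mice. Its log2 fold change was 0.48 ± 0.16 (edgeR unadjusted p = 0.003653, adjusted p = 0.9999; exact permutation test, two-sided, p = 0.03247). Sox10 had 45.6, 49.2 and 73.6 CPM in female Pb+Mn mice, against 26.1, 39.3 and 53.2 CPM in female Mn mice. It gave 0.44 ± 0.15 (edgeR unadjusted p = 0.005826; exact permutation test, two-sided, p = 0.02381), and Galnt6 and Myrf gave 0.57 ± 0.19 and 0.48 ± 0.16.

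No member separated the 2 groups fully, as 0.141% of all genes did. This comparison shares its female Mn libraries with that of female Mn and control. Without female Mn 1 and 5 the median was 0.09, with 22 positive and 9 negative, and edgeR put 0 members at an unadjusted p under 0.05, beside 1.93% of all genes. Female Pb+Mn mice over female controls gave a median of 0.04, with 21 positive and 10 negative fold changes between -0.24 for Mog and 0.20 for Plxnb3. There, 0 members were at an unadjusted p under 0.05 by edgeR, beside 1.64% of all genes.

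In male Mn mice the members were split. Over male controls 16 members were positive and 15 negative, with a median of 0.01, between -0.28 for Galnt6 and 0.20 for Aspa; edgeR put 0 members at an unadjusted p under 0.05, beside 2.25% of all genes. Whether the Mn difference itself was unlike between the sexes was tested as an interaction. All 31 interaction terms were negative, with a median of -0.33 and a median standard error of 0.27. None reached an unadjusted p of 0.05 by edgeR, beside 0.954% of all genes, and the smallest was that of Cldn11 (-0.43, unadjusted p = 0.05173). Without female Mn 1 and 5 the median was -0.10 with 27 negative, and without male control 4, the male library with the highest member level (0.54), it was -0.44 with 4 members at an unadjusted p under 0.05 (1.10% of all genes). Without male control 6, the male library with the lowest member level (-0.51), it was -0.25 with 0 members by edgeR (0.841% of all genes).

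In male Pb mice single members stood above and below male controls, and none passed the adjusted test. The member median was 0.01 with 17 positive and 14 negative; 2 members were at an unadjusted p under 0.05, Mbp higher and Ninj2 lower, beside 12.5% of all genes (8.28% higher and 4.23% lower). A count of 2 in 31 is below that background. Mbp had 3987, 6746 and 9939 CPM in male Pb mice (lowest, median and highest of 6 libraries), against 3267, 4335 and 8477 CPM in male controls, with male Pb 1 and 3 at the top and male control 4 as the high control. The log2 fold change of Mbp was 0.53 ± 0.24 (edgeR unadjusted p = 0.0348; exact permutation test, two-sided, p = 0.1255). Ninj2 had 0.426, 0.708 and 0.944 CPM in male Pb mice, against 0.506, 1.01 and 1.74 CPM in male controls, and gave -0.66 ± 0.33 (edgeR unadjusted p = 0.04943; exact permutation test, two-sided, p = 0.119). Without male control 4 the median was 0.12, and Mbp, Mobp, Bcas1 and Evi2a were higher at an unadjusted p under 0.05, beside 15.3% of all genes in either direction, so that count too was below the background. Mbp then gave 0.77 (edgeR unadjusted p = 0.002869), whereas without male Pb 3 it gave 0.40 (edgeR unadjusted p = 0.1146). Ninj2 gave -0.51 without male control 5 (edgeR unadjusted p = 0.1678). Without male control 6, whose member level was the lowest of the controls, the median was -0.07 and 2 members were lower, beside 9.22% of all genes in either direction.

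Male Pb 6 and female Pb 2 stood apart in another way: their members spread rather than moved together. The SD over the 31 centred log2 values was 0.541 in male Pb 6 and 0.571 in female Pb 2, against 0.141 to 0.345 in the other libraries. In both, 14 members lay below their mean and 11 above it, with 6 split, and the 2 profiles correlated at r = 0.91 over the members. Myrf stood at -1.09 in male Pb 6 and -0.80 in female Pb 2, Sox10 at -0.80 and -0.69, and Gpr37 at -0.73 and -0.63. Evi2a stood at 0.84 and 1.01, Ppp1r14a, an inhibitor of myosin phosphatase, at 0.83 and 0.85, and Mobp at 0.72 and 0.90. Evi2a lies within an intron of Nf1 on the opposite strand, and the sources used here do not give the strand setting of the counting, so its reads may include some from that gene. In the same 2 libraries 25 ribosomal protein genes stood at 1.36 and 1.38 (others -0.51 to 0.56), and the slope of centred log2 CPM on log2 exon length across genes was -0.276 and -0.249 (others -0.178 to 0.112). The part of RNA quality or library preparation in this pattern was not tested.

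**Figure D5:**
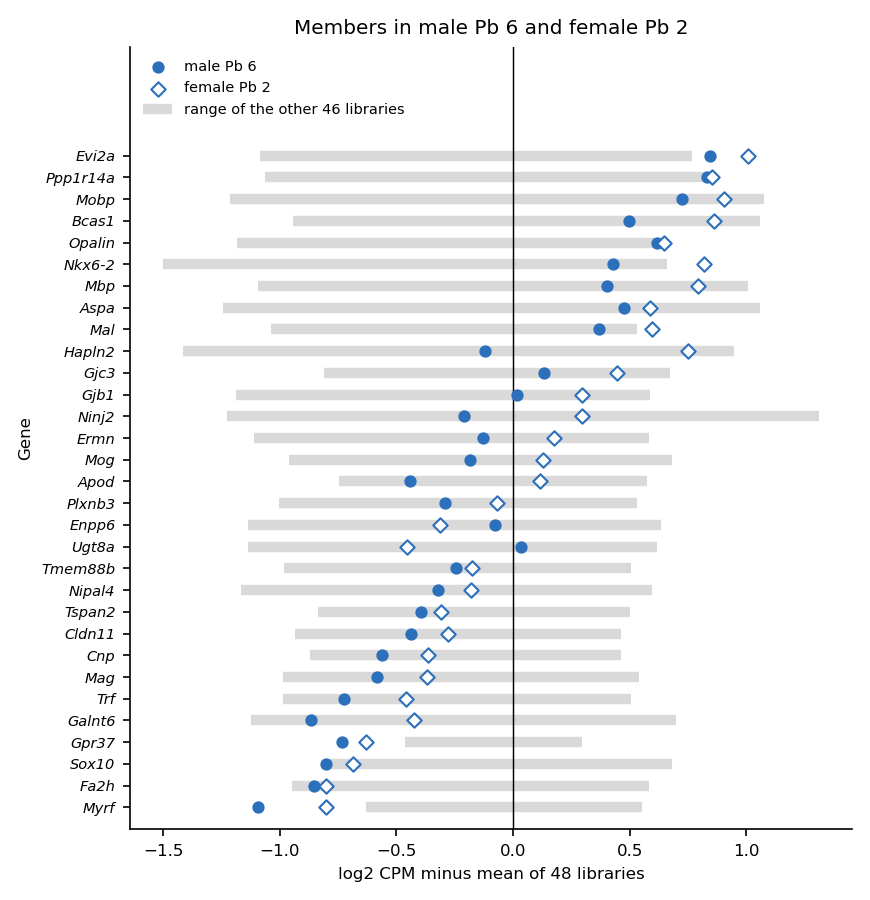
Centred log2 CPM of each member in male Pb 6 (filled) and female Pb 2 (open), with grey bars for the range of the other 46 libraries; genes are ordered by the mean of the pair. Evi2a lies above and Gpr37 and Myrf lie below that range in both libraries.

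Without male Pb 6, 1 member (Mbp, 0.56, edgeR unadjusted p = 0.03689) was left at an unadjusted p under 0.05 between male Pb and male control mice, beside 5.13% of all genes (845 genes, against 2046 with that library). With male Pb 6 included, all 25 ribosomal protein genes were positive in male Pb over male control mice, with a median of 0.62. Of these, 23 were at an unadjusted p under 0.05, beside 8.28% of all genes in the higher direction. The ribosomal list stood at 1.36 in male Pb 6, between -0.21 and 0.56 in the other male Pb libraries and between -0.28 and 0.18 in male controls. Ribosomal fold changes without male Pb 6 are not given.

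Male Pb+Mn over male Pb mice gave 14 positive and 17 negative fold changes, with a median of -0.05. At an unadjusted p under 0.05, 4 members were lower and 2 higher, beside 23.8% of all genes (15% lower and 8.81% higher), so the members' share was below the background. The lower members were Bcas1, a marker of cells that are laying down myelin (-0.63 ± 0.26), Mobp (-0.66 ± 0.30), Mbp (-0.53 ± 0.24) and Evi2a (-0.52 ± 0.23; log2, standard error), and the higher ones were Myrf and Galnt6. Bcas1 had 136.3, 200.2 and 278.7 CPM in male Pb+Mn mice, against 167.6, 319.3 and 482.0 CPM in male Pb mice, with a two-sided exact permutation p of 0.1212. All 4 lay above their mean over 48 libraries in male Pb 6. Without that library 2 members were lower at an unadjusted p under 0.05, below the 8.52% of all genes in either direction. Of single libraries, male Pb 3 mattered most for Bcas1, Mbp and Mobp. Without it they gave -0.48, -0.40 and -0.52 (edgeR unadjusted p = 0.08257, 0.1149 and 0.1044). For Evi2a it was male Pb 6, without which it gave -0.44 (edgeR unadjusted p = 0.08136). Over all genes, edgeR called none here, while DESeq2 called 326, voom with library weights 471, and edgeR without male Pb 2 or male Pb 5 called 1479 or 1545; no member was among them. Male Pb+Mn over male Mn mice had a median of -0.02 with 15 positive; edgeR put 0 members at an unadjusted p under 0.05, beside 4.03% of all genes. Sox10 had 49.2, 54.7 and 60.2 CPM in male Pb+Mn mice, against 38.6, 43.5 and 50.8 CPM in male Mn mice, a log2 fold change of 0.30 (exact permutation test, two-sided, p = 0.006494; edgeR unadjusted p = 0.05573). That gene was 1 of 44 taken to the exact test, of which 10 gave a p under 0.05, and the smallest p such a test allows is 0.002165. The 44 were the 4 members of smallest edgeR p in each comparison of 2 groups, tested on the same libraries. That choice favours small exact p-values, so the count of 10 cannot be read as an excess.

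The remaining comparisons held no member at an unadjusted p under 0.05 by edgeR. Male Pb+Mn over male control mice had a median of 0.00 with 16 positive, beside 2.93% of all genes at that p. Female Pb over female control mice had a median of -0.02 with 12 positive, beside 2.18% of all genes, and -0.02 with 13 positive without the library labelled female Pb 4. In that comparison Galnt6 had a log2 fold change of -0.33 and a two-sided exact permutation p of 0.0303. Female Pb+Mn over female Pb mice had a median of 0.07 with 20 positive, beside 3.83% of all genes, and -0.003 without female Pb 4. Female over male controls had a median of 0.04 with 21 positive, beside 1.31% of all genes, and it was 0.13 with 27 positive without male control 4 but -0.04 with 11 positive without male control 6. The interactions of sex with Pb and with Pb+Mn had medians of -0.07 and 0.04, beside 2.07% and 0.789% of all genes; without female Pb 4 the first was -0.02, and without male control 4 it was -0.18 and the second -0.09. Without male control 6 the first was 0.01 and the second 0.11, so both signs turned on those controls. Without female Pb 2 the interaction with Pb had a median of -0.08. There 1 member (Evi2a, lower) was at an unadjusted p under 0.05 by edgeR, below the 13.1% of all genes. Female Pb over female control mice then had a median of -0.06 with 10 positive, and female Pb+Mn over female Pb mice 0.09 with 23 positive.

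Male comparisons with control also turned on single control libraries. Without male control 4 the median was 0.12 for male Mn (26 positive) and 0.10 for male Pb+Mn (27 positive), and without male control 6 it was -0.07 and -0.08. Male control 4 and male control 6 had the highest and the lowest member level of their group, 0.54 and -0.51, so the direction of a small male median depended on which of them was counted. Male control 6 also had the fewest counts of all 48 libraries (6273586), and male control 4 was the library with Xist beside Ddx3y. Whether depth or sample identity has a part in their levels was not tested.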

How the data were processed

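RNA was measured by stranded mRNA sequencing of hippocampus from 48 mice. The authors deposited whole-number counts per gene; the submitters' processing notes name build GRCm39, featureCounts 2.0.6, STAR 2.7.10b, Trim Galore 0.6.9, edgeR, limma and R 4.4.2, with no settings. No source used here states how strand was treated, so reads of a gene and of an overlapping one cannot be told apart. Symbols were matched for 51884 of 57126 identifiers, holding 99.52% of counts. Exon lengths came from GENCODE on build GRCm38 and serve for levels per kilobase only.

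From the counts, edgeR 4.0.16 gave TMM scaling, filterByExpr (16360 genes), 1 term per group over all 48 libraries, glmQLFit and glmQLFTest, and Benjamini-Hochberg adjustment over all genes at 0.05. Standard errors are the fold change over the square root of F. CPM were scaled by TMM, and log2 CPM used a prior count of 2. Exact permutation tests took log2 CPM over all arrangements of 6 against 6, for the 4 members of smallest edgeR p in each comparison of 2 groups. The fit was tested on simulated data. Named in each comparison were the 4 members of smallest p; per-library levels were kept to a list of 20 members and those; Gpr37, Hapln2, Plxnb3, Ermn, Tmem88b, Ppp1r14a, Nipal4 and Ninj2 are named where they were an extreme of a range, and the female Mn values of Mbp, Mog, Mag, Aspa, Gpr37, Gjb1, Gjc3 and Sox10 were added after they were seen. The members and all lists were chosen with earlier results of these data known, as was the pair female Mn 1 and 5. Alternatives were DESeq2 1.42.0, limma 3.58.1 voom with and without library weights, RLE scaling, no filter, only the groups compared, a replicate block, a threshold of 0.10, each library left out, and edgeR's older quasi-likelihood, which was added after seeing the data. The replicate numbers do not pair the animals by the labels.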

Additional observations from a re-analysis of the deposited data

Results flagged for a closer look

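In groups of 6, a library is given here when its gap to the nearest other library, as a share of the group's range, exceeded Dixon's critical value; 19 did among 224 groups looked at, where chance gives about 1 in 20 groups. The member level of male Pb+Mn 1 was -0.39, the lowest of its group (others -0.01 to 0.21). Male Pb+Mn 1 was also lowest in its group for Gjc3 (4.716 log2 CPM), Nkx6-2 (3.013), Galnt6 (3.079) and Tmem88b (5.979). Male Pb 6 was lowest for Myrf (5.059 log2 CPM) and Sox10 (4.72), and female Pb 2 for Myrf (5.354), Sox10 (4.835) and Gpr37 (5.822). Male Pb+Mn 4 was highest for Myrf (6.677 log2 CPM) and female Pb+Mn 4 for Sox10 (6.204). Female Pb+Mn 6 was lowest for Cnp (8.345 log2 CPM) and Nipal4 (1.886), and female Pb+Mn 5 for Ninj2 (-0.9591). Among controls, male control 4 was highest for Enpp6 (3.846 log2 CPM), female control 1 for Evi2a (4.891) and female control 5 for Tmem88b (6.586). Male Mn 2 was highest for Bcas1 (8.32 log2 CPM). Female Mn 1 and 5 are not among these, since they lie close to each other.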

How the results depend on the processing

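No member was called at an adjusted p of 0.05 under any of 333 alternatives, and the fold changes of the named members kept their sign in 1276 of 1276. The member medians moved by less than the spread between libraries (0.275 log2) in 319 of 319. That limit is wide, so this count does not show that the medians were stable. Within it the female Mn median went from -0.29 to -0.09 without female Mn 1 and 5. The male Mn median ran between -0.07 and 0.12 with single libraries left out. Counts of members at an unadjusted p under 0.05 moved more. For male Pb over control the 2 members became 1 with RLE scaling, with the older edgeR quasi-likelihood and with only the groups compared, 6 without a filter and 4 with voom weights, and 1 to 4 when single libraries were left out. For female Mn over control the 10 became 6 with only the groups compared, 14 with voom, 1 without female Mn 1 and 5, and 3 to 18 with single libraries left out. For female Pb+Mn over Mn the 14 became 0 without that pair and 6 to 17 with single libraries left out. For male Pb+Mn over Pb the 6 became 2 to 7. For the interaction of sex with Mn the 0 became 3 with voom and 2 with DESeq2. A replicate block gave 1 member for male Pb and 12 for female Mn, with a female Mn median of -0.31. Same-numbered female Mn and female control libraries correlated at -0.111 to 0.21, with 3 of 6 above 0.1 and 2 matching their own number best. Over the comparisons of 2 groups, between 0 and 3 libraries matched their own number best. These values do not settle whether the numbers pair animals. Over tools the female Mn median ran between -0.33 and -0.27. The cause of these moves was not tested beyond the libraries named. Among low members such as Ninj2, counts limit what could be seen.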
